A study of Mus musculus with 10 samples.

Results

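The genes described here are 39 components of macroautophagy, chosen by name. All 39 were found in both deposited tables, among 16667 genes with normalized counts and 29242 with TPM, and all 39 passed the filter on low values that 14203 genes passed. They were measured by RNA sequencing of visceral fat from 5 KPC mice and 5 sham mice, all C57BL/6 with a wild-type genotype and 10 weeks old. The KPC mice are labelled as carrying an orthotopic pancreatic tumour, that is, one placed in the pancreas, and the sham mice had sham surgery. KPC refers to a widely used genetic model of pancreatic cancer. The sample titles carry the word gwat, taken here to mean gonadal white fat. Bulk tissue was sequenced, in which fewer cells of a type and less RNA per cell cannot be told apart. Levels are in TPM, which corrects for transcript length and library size, with means ± SD over 5 mice per group. The places of single mice among the others are in TPM unless normalized counts are named, and the scales can place a mouse differently. Differences are KPC minus sham in log2(normalized count + 1), fitted by limma over all 14203 genes.

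Macroautophagy encloses cytoplasm in a double membrane that fuses with the lysosome. The ULK kinase complex starts the process, the class III phosphatidylinositol 3-kinase complex marks the site with a lipid, ATG9A vesicles, ATG2 and VMP1 supply and pass on membrane, and a ubiquitin-like conjugation system attaches ATG8 proteins (the LC3 and GABARAP families) to it. Cargo receptors such as p62 bind both cargo and ATG8 proteins, and TFEB and TFE3 are transcription factors that activate autophagy and lysosome genes when nutrients are scarce. In fat cells the pathway is known for its part in adipocyte differentiation and in the turnover of mitochondria. Transcript levels do not measure autophagic flux, which is set largely by protein modification and degradation.

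No autophagy gene passed the test for a difference between KPC and sham fat. By limma with Benjamini-Hochberg adjustment over all genes, 0 of the 39 were called at an adjusted p under 0.05, where 0.0563% of all genes tested were (0.0493% higher and 0.00704% lower in KPC mice), and the lowest adjusted p among the 39 was 0.262. At an unadjusted p under 0.05 there were 2 of 39 (5.13%), Uvrag higher and Atg9a lower in KPC mice, against 13.5% of all genes (7.61% higher and 5.91% lower). By the exact two-sided permutation test of single genes, 4 of the 39 (10.3%) had a p under 0.05, Gabarap and Uvrag higher and Atg9a and Wipi1 lower in KPC mice, against 13.9% of all genes (7.78% higher and 6.17% lower). For 1 of 39 (2.56%), Gabarap, the normalized counts of the groups did not overlap, against 4.03% of all genes (2.75% higher and 1.28% lower). The median difference was -0.05 over the 39 genes and -0.02 over all genes tested. Of the autophagy genes 16 were positive (41%, against 46.9% of all genes tested) and 23 negative. With KPC mouse 1 left out the medians were -0.0208 over the 39 genes and -0.0225 over all genes. On TPM they were -0.075 over the 39 genes and -0.0388 over all genes. With 1 mouse left out the median of the 39 ran from -0.0713 (without KPC mouse 3) to -0.015 (without sham mouse 3).

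The 95% intervals give a range for each difference, taken gene by gene and not adjusted over the 39 genes. The median SE of a log2 difference was 0.118 over the 39 genes, against 0.172 over all genes tested. The 95% interval lay within a 2-fold difference in either direction for 39 of 39 genes and within a 1.5-fold difference for 35. The differences themselves ran from -0.32 for Atg9a to 0.38 for Vmp1, and their median size was 0.0946, against 0.173 over all genes and 0.153 over those averaging 50 or more normalized counts.

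**Figure D1:**
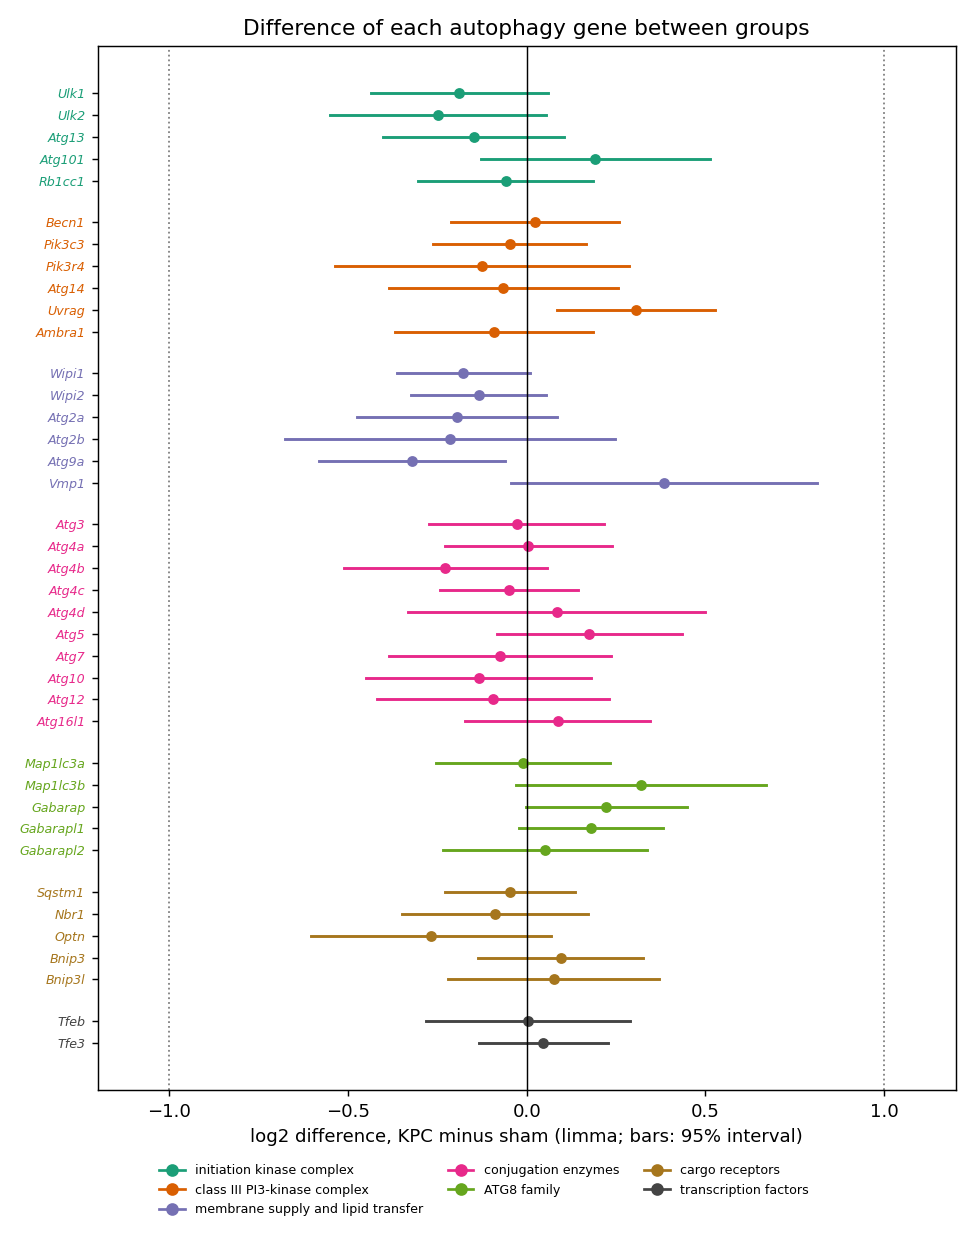
Log2 difference of each autophagy gene, KPC minus sham, with its 95% interval from limma (5 mice per group); genes are grouped and coloured by role, and dotted lines mark 2-fold differences. Every interval stays inside the dotted lines, and only those of Uvrag and Atg9a leave out 0.

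TFEB and TFE3 bind the E-box CACGTG, so the promoters of the autophagy genes were searched for it. Promoter sequences of RefSeq on GRCm38.p6, from 250 bases before to 50 after the start, were at hand for 32 of the 39 genes. Of these, 5 (15.6%) held CACGTG, namely Atg3, Atg5, Atg7, Atg14 and Bnip3. Among the 10839 genes tested by limma that had such sequences, 11.3% held it in at least 1 promoter. Among all 27025 genes with such sequences 8.09% did. The longer CLEAR palindrome of TFEB sites, which contains this E-box, was in 0 of 32 (0.683% of those 10839 genes). The FoxO word TGTTTAC was in 0 (3.12%), and the antioxidant response word TGACNNNGC in 4 (Atg13, Map1lc3b, Ulk2 and Vmp1, 12.5% against 16.8%). All were searched on both strands. The E-boxes that lie before the RefSeq start of 4 genes are shown with up to 25 bases on either side, since this E-box is the word TFEB and TFE3 are known to bind; capitals mark CACGTG.
Atg3, chr16:45158710-45158788, plus strand, 5′ to 3′: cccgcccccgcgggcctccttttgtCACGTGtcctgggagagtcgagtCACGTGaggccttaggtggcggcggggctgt
Atg5, chr10:44268300-44268338, plus strand, 5′ to 3′: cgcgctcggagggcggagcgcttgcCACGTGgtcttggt
Atg7, chr6:114670939-114670994, plus strand, 5′ to 3′: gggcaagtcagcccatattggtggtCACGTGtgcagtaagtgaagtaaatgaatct
Bnip3, chr7:138909584-138909639, minus strand, 5′ to 3′: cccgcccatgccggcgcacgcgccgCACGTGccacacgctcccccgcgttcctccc
The 4 genes had differences of -0.03, 0.18, -0.08 and 0.09 in this order, and the window of Atg3 holds 2 E-boxes. The start used for Atg7 is internal to the gene as GENCODE vM21 annotates it (chromosome 6, 114643097 to 114860614, plus strand), so its window lies within the gene. A match is a description of these letters and shows no binding.

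The library of KPC mouse 1 stood apart from the rest of the series. Its median correlation with the other libraries was 0.908, where the other 9 had 0.939 to 0.959, and mitochondrially encoded genes took 15.7% of its TPM, where the other 9 had 26.3% to 33.3%. Its macrophage markers summed to 6194 TPM and its red cell markers to 40720 TPM. Normalized counts summed to between 20941200 and 24449900 per library. Without KPC mouse 1 the count of all genes called was 70 (66 higher and 4 lower, 0.493% of those tested) in place of 8, and again 0 of the 39 autophagy genes were called; at an unadjusted p under 0.05 there were then 4, Uvrag, Gabarapl1, Atg9a and Wipi1, where 12.4% of all genes passed it.

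The fat expressed the whole pathway in both groups, at levels that spanned more than 2 orders of magnitude. In sham fat 10 of the 39 genes averaged over 50 TPM, 21 from 10 to 50 TPM and 8 under 10 TPM. The same 10 genes headed the order in both groups, namely Bnip3, Gabarap, Sqstm1, Map1lc3a, Map1lc3b, Bnip3l, Gabarapl1, Becn1, Gabarapl2 and Vmp1, and they held 79.8% to 84.2% of the summed TPM of the 39 genes in KPC mice and 78.2% to 80.7% in sham mice. Of these 10, 8 are genes of ATG8 proteins or cargo receptors, among which p62 and LC3 are known to be degraded in the lysosome themselves. At the low end stood the protease gene Atg4d, at 1.29 ± 0.306 TPM in KPC and 1.23 ± 0.152 TPM in sham mice, and the lipid transfer gene Atg2b, at 2.73 ± 0.92 TPM in KPC and 3.1 ± 0.482 TPM in sham mice. The sum over all 39 genes was 2388 ± 116 TPM in KPC mice and 2304 ± 144 TPM in sham mice (SD, n = 5 each). Since TPM are shares of a library, such sums also depend on its other transcripts, among them the mitochondrially encoded ones.

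**Figure D2:**
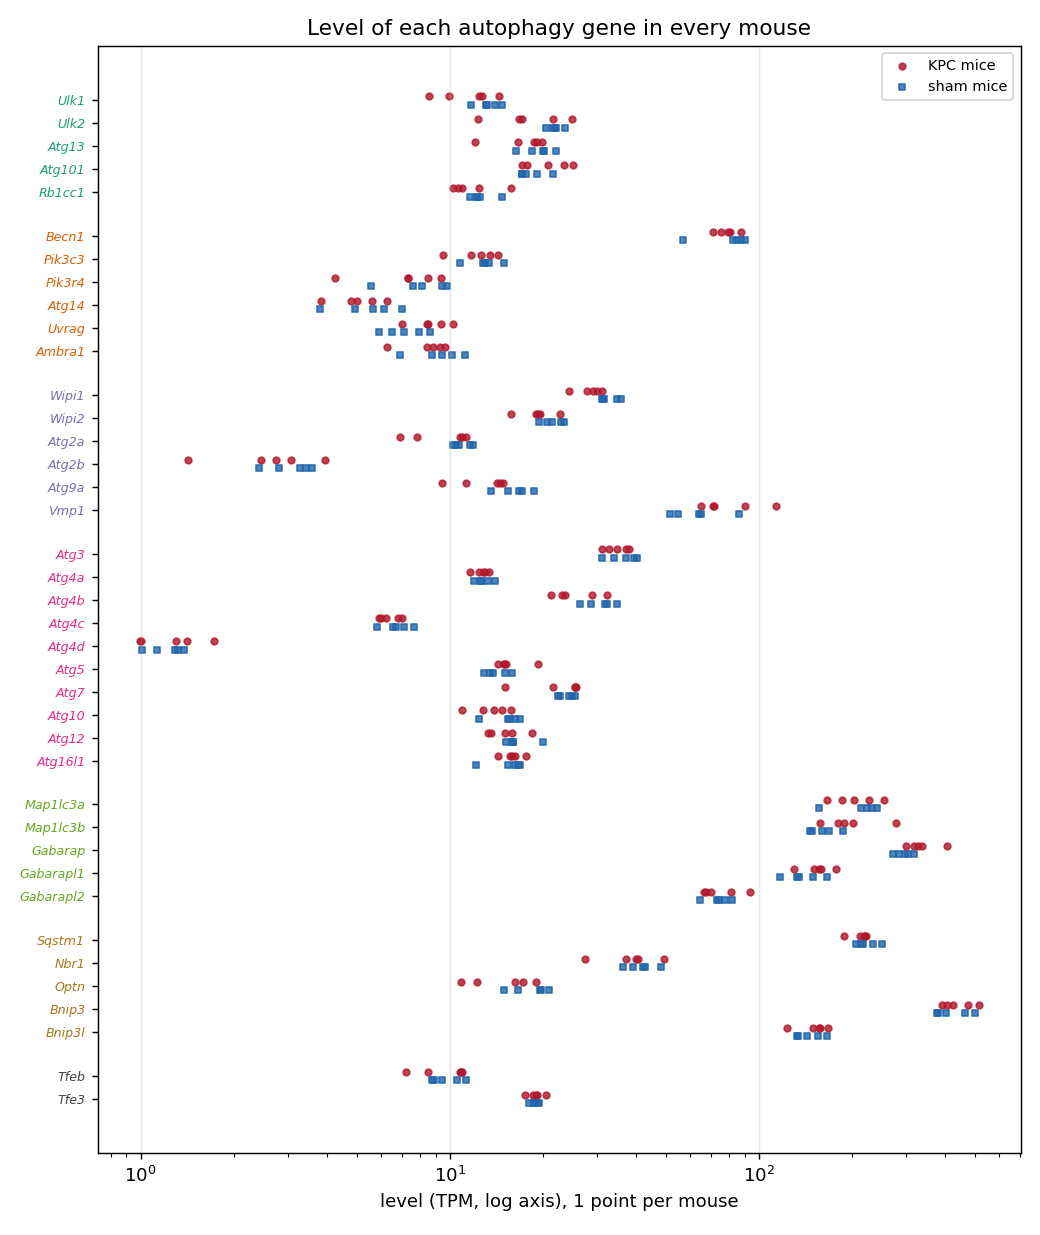
TPM of each autophagy gene in every mouse on a log axis, KPC mice above sham mice within each gene, genes coloured by role. The groups overlap for nearly all genes; Bnip3 heads the levels at 443 TPM on average in KPC and 425 TPM in sham mice, and Atg4d ends them at 1.29 and 1.23 TPM.

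The initiation complex consists of the kinases ULK1 and ULK2 with the scaffold proteins ATG13, ATG101 and FIP200, the product of Rb1cc1. Of its 5 genes 4 had negative differences and 0 passed. Ulk1 stood at 8.55, 9.94, 12.5, 14.5 and 12.7 TPM in KPC mice 1 to 5, against 11.8, 13.1, 14, 13.2 and 14.8 TPM in sham mice 1 to 5. KPC mice 1 and 2 were the lowest of all 10, and the other 3 lay among the sham mice. For Ulk1 the difference was -0.19 ± 0.11 (SE; 95% interval -0.44 to 0.06) and the limma adjusted p 0.484. Ulk2 stood at 12.4, 16.8, 17.2, 24.8 and 21.6 TPM in KPC mice 1 to 5, against 21.9, 20.6, 23.7, 22 and 21.7 TPM in sham mice 1 to 5. KPC mice 1 to 3 lay below every sham mouse and KPC mouse 4 above every one. The difference of Ulk2 was -0.25 ± 0.14 (SE; 95% interval -0.55 to 0.05), with a limma adjusted p of 0.448. Atg13 averaged 17.3 ± 3.17 TPM in KPC and 19.4 ± 2.1 TPM in sham mice, Rb1cc1 12 ± 2.25 TPM in KPC and 12.7 ± 1.18 TPM in sham mice and Atg101 20.8 ± 3.5 TPM in KPC and 18.5 ± 1.88 TPM in sham mice. With KPC mouse 1 left out, the difference of Ulk1 was -0.10 ± 0.09 (SE) and that of Ulk2 -0.13 ± 0.10 (SE).

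In the class III phosphatidylinositol 3-kinase complex, the lipid kinase VPS34 (Pik3c3) and its regulatory subunit VPS15 (Pik3r4) join beclin 1 and either ATG14, in autophagosome formation, or UVRAG, in endosome traffic and autophagosome maturation. Uvrag had the smallest limma p-value of the 39 genes. Uvrag stood at 8.42, 7.03, 8.49, 10.2 and 9.34 TPM in KPC mice 1 to 5, against 5.9, 6.52, 8.64, 7.1 and 7.93 TPM in sham mice 1 to 5. The ranges overlapped: KPC mouse 2 lay below sham mice 3, 4 and 5, and only KPC mice 4 and 5 lay above every sham mouse in TPM. In normalized counts KPC mice 1, 3, 4 and 5 (862, 861, 920 and 887) lay above every sham mouse (highest 782). KPC mouse 2 (709) lay below sham mice 3 and 5 on that scale. For Uvrag the difference was 0.31 ± 0.10 (SE; 95% interval 0.08 to 0.53) and the limma adjusted p 0.262. The exact two-sided permutation test of the same values gave p = 0.0238, where 0.00794 is the smallest that 5 mice against 5 can give. Within the first number of the sample titles, whose meaning the labels do not give, the difference of Uvrag was 0.31 for number 1 (2 KPC and 2 sham mice), 0.27 for number 2 (1 and 2) and 0.31 for number 4 (2 and 1). On TPM, Uvrag did not reach an unadjusted p under 0.05.

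Becn1, the gene of beclin 1, did not pass the test. Becn1 stood at 87.7, 75.3, 71.2, 79.8 and 80.8 TPM in KPC mice 1 to 5, against 56.7, 90.3, 88, 84.9 and 82.3 TPM in sham mice 1 to 5. Sham mouse 1 was the lowest of all 10 and the KPC mice lay within the range of the sham mice. The difference of Becn1 was 0.02 ± 0.11 (SE; 95% interval -0.21 to 0.26), with a limma adjusted p of 0.947. The other 4 genes of the complex had small negative differences. Pik3c3 averaged 12.3 ± 1.85 TPM in KPC and 13 ± 1.48 TPM in sham mice, Pik3r4 7.36 ± 1.93 TPM in KPC and 8.1 ± 1.69 TPM in sham mice, Atg14 5.11 ± 0.914 TPM in KPC and 5.51 ± 1.21 TPM in sham mice and Ambra1, which encodes a binding partner of beclin 1, 8.5 ± 1.33 TPM in KPC and 9.29 ± 1.6 TPM in sham mice. Without KPC mouse 1, which held the lowest Pik3r4 level of all 10 mice, 4 of the 6 genes were positive and 2 negative.

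Genes for membrane supply and lipid transfer held the lowest and the highest difference of the pathway. Atg9a encodes the transmembrane lipid scramblase carried by the vesicles that seed the autophagosome. Atg9a stood at 9.47, 11.3, 14.9, 14.2 and 14.6 TPM in KPC mice 1 to 5, against 13.6, 15.4, 16.7, 17.2 and 18.7 TPM in sham mice 1 to 5. In TPM KPC mice 1 and 2 lay below every sham mouse, and the other 3 above the lowest sham mouse only. In normalized counts KPC mice 1, 2, 4 and 5 (663, 778, 871 and 945) lay below every sham mouse (lowest 996). KPC mouse 3 (1031) lay among the sham mice on that scale. For Atg9a the difference was -0.32 ± 0.12 (SE; 95% interval -0.58 to -0.06) and the limma adjusted p 0.296. The exact permutation p was 0.0238. By title number the difference was -0.49, -0.03 and -0.38 for numbers 1, 2 and 4, and without KPC mouse 1 it was -0.23 ± 0.09 (SE), with a limma adjusted p of 0.352. Exons of Atg9a overlap those of Gm29253 on the same strand and Ankzf1 on the other, and the strand setting of the counting is not given in the sources used here, so reads there cannot be told apart.

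Vmp1 encodes a membrane protein of the endoplasmic reticulum that scrambles lipids beside ATG2. Vmp1 stood at 114, 71.9, 65.2, 90 and 71 TPM in KPC mice 1 to 5, against 86.2, 51.7, 65, 64.1 and 54.7 TPM in sham mice 1 to 5. KPC mouse 1 was the highest of all, sham mouse 1 the third highest, and without sham mouse 1 the groups did not overlap in normalized count. The difference of Vmp1 was 0.38 ± 0.20 (SE; 95% interval -0.05 to 0.81), with a limma adjusted p of 0.414. It was 0.24 ± 0.17 (SE) with KPC mouse 1 left out. Exons of Vmp1 overlap Mir21a, the gene of a microRNA, on the same strand.

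The phosphoinositide-binding proteins WIPI1 and WIPI2 read the lipid mark and recruit ATG2 or the conjugation machinery. Wipi1 stood at 30, 24.4, 27.8, 31 and 29 TPM in KPC mice 1 to 5, against 31.4, 31.5, 31, 35.9 and 34.7 TPM in sham mice 1 to 5. In TPM all 5 KPC mice lay below all 5 sham mice, with KPC mouse 4 and sham mouse 3 almost touching. In normalized counts KPC mouse 1 (1479) lay above sham mice 2 (1466) and 3 (1348), so the ranges overlapped. For Wipi1 the difference was -0.18 ± 0.09 (SE; 95% interval -0.36 to 0.01) and the limma adjusted p 0.392. The exact permutation p was 0.0476. With KPC mouse 1 left out the difference was -0.21 ± 0.08 (SE), with an unadjusted p of 0.0192 and a limma adjusted p of 0.292. Wipi2 averaged 19.3 ± 2.46 TPM in KPC and 21.6 ± 1.6 TPM in sham mice, Atg2a 9.56 ± 2.05 TPM in KPC and 11 ± 0.732 TPM in sham mice and Atg2b 2.73 ± 0.92 TPM in KPC and 3.1 ± 0.482 TPM in sham mice. In this group 5 of 6 genes were negative, also without KPC mouse 1, and 0 passed.

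The conjugation system uses ATG7 as its activating enzyme, ATG3 and ATG10 as transferring enzymes, the ATG12, ATG5 and ATG16L1 assembly as the final ligase and the ATG4 proteases to trim and recycle ATG8 proteins. Its 10 genes had differences of -0.23 to 0.18, 4 positive and 6 negative. Atg5 stood at 19.3, 15, 15.2, 14.9 and 14.3 TPM in KPC mice 1 to 5, against 13.5, 13.8, 15.1, 15.9 and 12.9 TPM in sham mice 1 to 5. In TPM KPC mouse 1 was the highest of all 10 and the other KPC mice lay within the range of the sham mice. In normalized counts KPC mice 1, 2 and 3 (925, 707 and 719) lay above every sham mouse (highest 681). The difference of Atg5 was 0.18 ± 0.12 (SE; 95% interval -0.08 to 0.43), with a limma adjusted p of 0.529. It was 0.08 ± 0.09 (SE) with KPC mouse 1 left out. Atg7 stood at 15.1, 25.5, 25.3, 25.7 and 21.7 TPM in KPC mice 1 to 5, against 24.9, 24.3, 25.4, 22.5 and 22.8 TPM in sham mice 1 to 5. KPC mouse 1 stood far below the other 9. For Atg7 the difference was -0.08 ± 0.14 (SE; 95% interval -0.39 to 0.24) and the limma adjusted p 0.846. The sign turned with KPC mouse 1 left out, to 0.05 ± 0.10 (SE).

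The other conjugation genes also gave no call. Atg3 averaged 34.8 ± 2.94 TPM in KPC and 36.4 ± 3.94 TPM in sham mice, Atg10 13.7 ± 1.86 TPM in KPC and 15.3 ± 1.7 TPM in sham mice, Atg12 15.3 ± 2.07 TPM in KPC and 16.6 ± 1.92 TPM in sham mice and Atg16l1 16 ± 1.15 TPM in KPC and 15.5 ± 1.95 TPM in sham mice. Among the proteases, Atg4b, known as the main one acting on LC3, was the most abundant, at 25.9 ± 4.61 TPM in KPC and 30.8 ± 3.22 TPM in sham mice, with a difference of -0.23 ± 0.13 (SE). It stood above Atg4a at 12.6 ± 0.678 TPM in KPC and 12.9 ± 0.78 TPM in sham mice, Atg4c at 6.38 ± 0.494 TPM in KPC and 6.77 ± 0.69 TPM in sham mice and Atg4d at the low end given above.

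**Figure D3:**
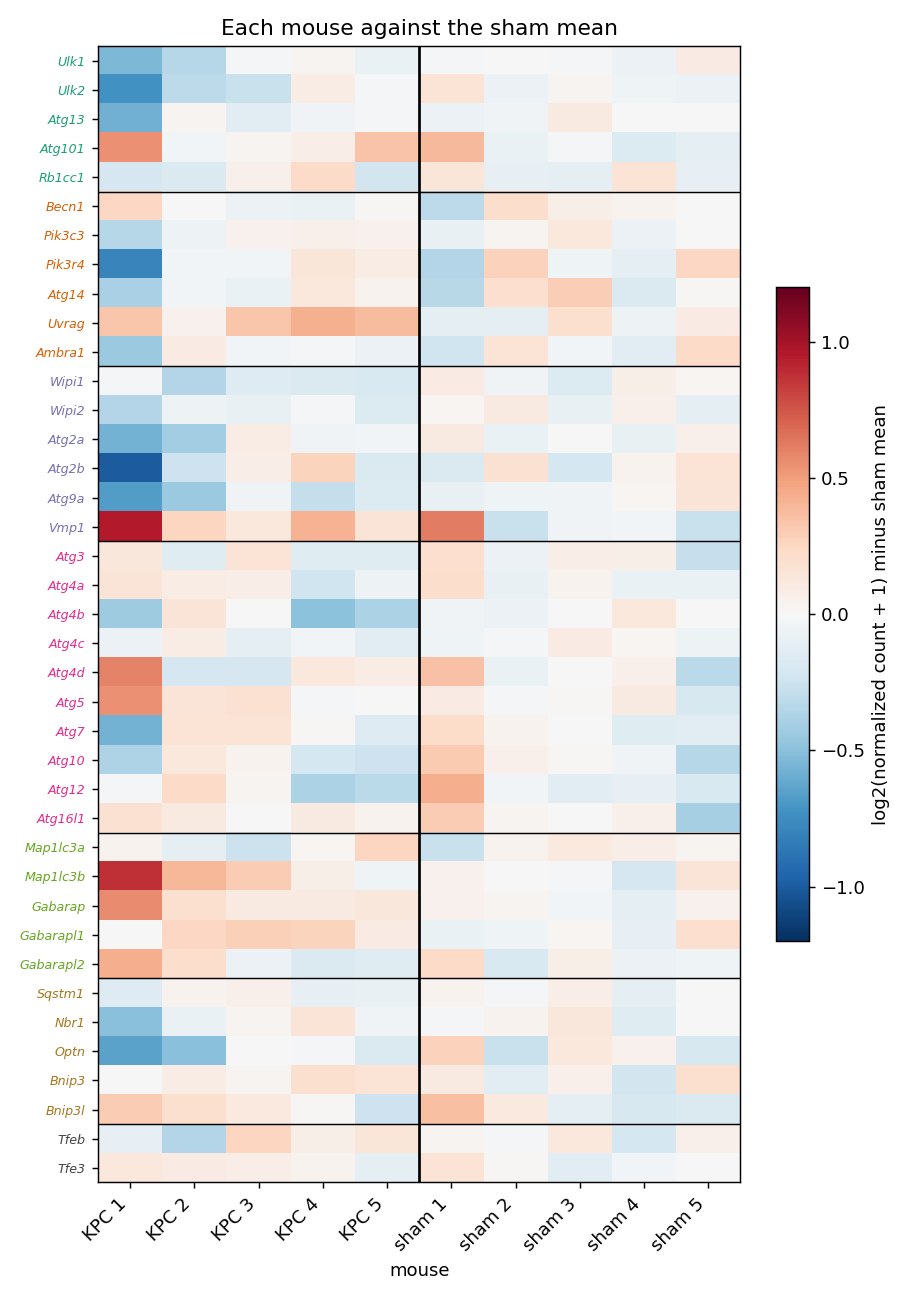
Log2 deviation of each mouse from the sham mean for the 39 autophagy genes, KPC mice left of sham mice, red above and blue below the sham mean; black lines part the roles. KPC mouse 1 holds nearly all the strong colours, with 10 genes more than 0.5 below and 6 more than 0.5 above the sham mean.

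The deviations were concentrated in KPC mouse 1. In that library 10 of 39 genes lay more than 0.5 (log2) below the sham mean and 6 more than 0.5 above it. KPC mice 2 to 5 had 0 of either and sham mice had 1 in all, Vmp1 in sham mouse 1. Each sham mouse is itself part of the sham mean, which makes its deviations smaller, so the sham and KPC counts are not on equal terms. KPC mouse 1 had the lowest TPM of all 10 mice for 17 genes and the highest for 8. Its initiation genes stood at a median of -0.54 and its ATG8 genes at 0.43 relative to the sham mean. KPC mouse 4 had the highest TPM of the 5 KPC mice for 22 genes. That count belongs to TPM: in normalized counts of Wipi1, for example, KPC mouse 1 (1479) exceeded KPC mouse 4 (1339).

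ATG8 proteins are the ubiquitin-like tags of the autophagosome membrane, in mouse fat as LC3A and LC3B (Map1lc3a, Map1lc3b), GABARAP, GABARAPL1 and GATE-16 (Gabarapl2). Of these 5 genes 4 had positive differences, with a median of 0.18, and 0 passed. Without KPC mouse 1, 3 were positive and 2 negative, with a median of 0.137. Gabarap stood at 408, 319, 299.7, 337 and 327 TPM in KPC mice 1 to 5, against 272, 297, 304, 284 and 318 TPM in sham mice 1 to 5. In TPM the ranges overlapped, since KPC mouse 3 lay below sham mice 3 and 5. In normalized counts Gabarap stood at 8407, 6469, 6118, 6092 and 6243 in KPC mice 1 to 5, against 5866, 5799, 5541, 5260 and 5889 in sham mice 1 to 5. On that scale the lowest KPC value exceeded the highest sham value. The difference of Gabarap was 0.22 ± 0.10 (SE; 95% interval -0.0029 to 0.45), with a limma adjusted p of 0.374. The exact permutation p was 0.00794, the smallest this design can give. By title number the difference was 0.34, 0.18 and 0.07 for numbers 1, 2 and 4, and without KPC mouse 1 it was 0.14 ± 0.06 (SE) with a limma adjusted p of 0.422.

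Map1lc3b stood at 278, 202, 188, 180.2 and 157 TPM in KPC mice 1 to 5, against 149, 160.3, 169, 146 and 187 TPM in sham mice 1 to 5. KPC mouse 1 lay far above the other 9, KPC mice 2 and 3 above the highest sham mouse and KPC mice 4 and 5 among the sham mice. For Map1lc3b the difference was 0.32 ± 0.16 (SE; 95% interval -0.03 to 0.67) and the limma adjusted p 0.405. It was 0.18 ± 0.11 (SE) with KPC mouse 1 left out. Gabarapl1 stood at 129.7, 157, 159.5, 178 and 151 TPM in KPC mice 1 to 5, against 117, 133, 150.0, 135 and 167 TPM in sham mice 1 to 5. In TPM only KPC mouse 4 lay above every sham mouse. In normalized counts KPC mice 2, 3 and 4 (5145, 5275 and 5223) did so (highest sham value 4996). The difference of Gabarapl1 was 0.18 ± 0.09 (SE; 95% interval -0.02 to 0.38), with a limma adjusted p of 0.417. With KPC mouse 1 left out it was 0.22 ± 0.08 (SE), with an unadjusted p of 0.0185 and a limma adjusted p of 0.29.

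LC3A and GATE-16 transcripts did not pass either. Map1lc3a stood at 203, 186, 166, 228 and 254 TPM in KPC mice 1 to 5, against 156, 214, 242, 232 and 224 TPM in sham mice 1 to 5. The lowest value was that of sham mouse 1 and the highest that of KPC mouse 5. For Map1lc3a the difference was -0.01 ± 0.11 (SE; 95% interval -0.25 to 0.23) and the limma adjusted p 0.98. Gabarapl2 stood at 93.5, 81.2, 66.5, 70.1 and 67.6 TPM in KPC mice 1 to 5, against 77.7, 64.5, 82.2, 73.5 and 74.2 TPM in sham mice 1 to 5. KPC mouse 1 was the highest and the other 4 KPC mice lay within the range of the sham mice. The difference of Gabarapl2 was 0.05 ± 0.13 (SE; 95% interval -0.23 to 0.34), with a limma adjusted p of 0.885.

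The mean shares of the 5 genes ranked in the same order in both groups. Gabarap took 34.5% ± 1.23 of the summed TPM of the 5 genes in KPC mice and 33.4% ± 1.27 in sham mice (SD, n = 5 each). Map1lc3a took 21.3% ± 3.48 in KPC and 24.04% ± 2.48 in sham mice, Map1lc3b 20.5% ± 3.30 in KPC and 18.3% ± 1.05 in sham mice, Gabarapl1 16.0% ± 2.62 in KPC and 15.8% ± 0.808 in sham mice, and Gabarapl2 7.74% ± 0.731 in KPC and 8.45% ± 1.04 in sham mice. Map1lc3b exceeded Map1lc3a in KPC mice 1, 2 and 3 and in no sham mouse. The 5 genes summed to 880 to 1112 TPM in KPC mice and 772 to 970.1 TPM in sham mice, overlapping ranges. The highest sum was in KPC mouse 1, where mitochondrially encoded genes took the lowest share of TPM (15.7%). The lowest sum was in sham mouse 1, where they took the highest share (33.3%). The part of that share in the sums was not tested.

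**Figure D4:**
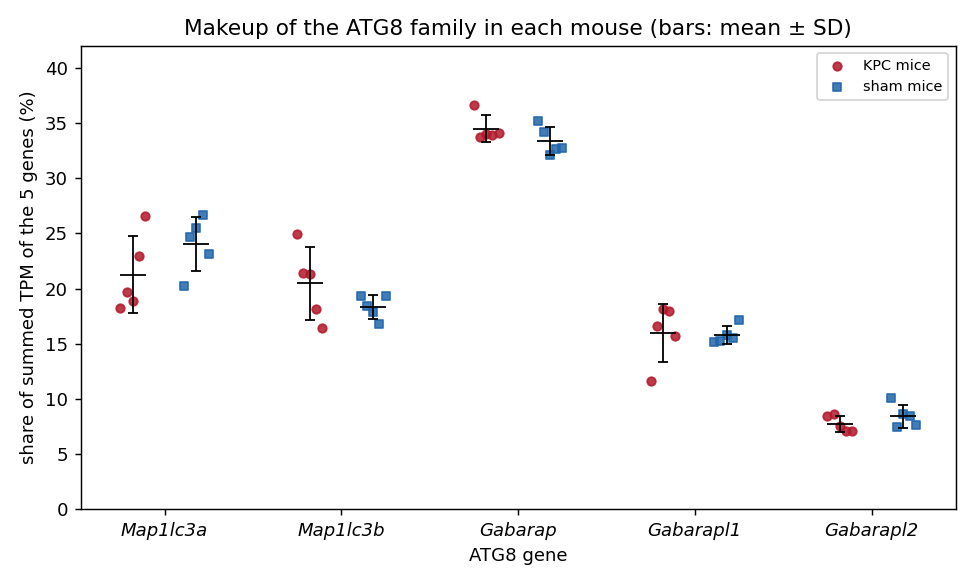
Share of each ATG8 gene in the summed TPM of the 5 genes, 1 point per mouse, KPC left of sham, bars showing mean ± SD of 5 mice. Gabarap holds about a constant share (34.5% in KPC and 33.4% in sham mice), while the LC3 shares spread most among KPC mice.

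Cargo receptors bring ubiquitinated proteins or organelles to ATG8 proteins. Sqstm1 encodes p62, which is also a transcriptional target of the oxidative stress factor NRF2. Sqstm1 stood at 188, 219, 220.3, 222 and 212 TPM in KPC mice 1 to 5, against 206, 218, 251, 215 and 234 TPM in sham mice 1 to 5. KPC mouse 1 was the lowest, and the other KPC mice lay within the range of the sham mice. For Sqstm1 the difference was -0.05 ± 0.08 (SE; 95% interval -0.23 to 0.14) and the limma adjusted p 0.835. It was -0.02 ± 0.07 (SE) when KPC mouse 1 was left out. Nbr1, encoding a receptor related to p62, averaged 38.9 ± 7.85 TPM in KPC and 41.9 ± 4.49 TPM in sham mice, and Optn, encoding optineurin, 15.1 ± 3.45 TPM in KPC and 18.4 ± 2.51 TPM in sham mice.

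BNIP3 and NIX (Bnip3l) sit on the outer mitochondrial membrane, act in mitophagy and are known targets of hypoxia signalling. Bnip3 was the most abundant of the 39 genes. Bnip3 stood at 392, 426, 408, 514 and 476 TPM in KPC mice 1 to 5, against 405, 380.0, 464, 376 and 501 TPM in sham mice 1 to 5. The ranges almost coincided. The difference of Bnip3 was 0.09 ± 0.11 (SE; 95% interval -0.14 to 0.33), with a limma adjusted p of 0.719. Bnip3l stood at 168, 158, 149, 157 and 123 TPM in KPC mice 1 to 5, against 167, 156, 144, 133 and 134 TPM in sham mice 1 to 5. KPC mouse 1 was the highest and KPC mouse 5 the lowest of all 10. For Bnip3l the difference was 0.08 ± 0.13 (SE; 95% interval -0.22 to 0.37) and the limma adjusted p 0.837. Leaving out KPC mouse 1 gave 0.02 ± 0.13 (SE). NIX also clears mitochondria from maturing red cells, and the red cell markers (7 of 7 measured, 0 passing) summed to 8550 to 40720 TPM in KPC mice and 4748 to 12870 TPM in sham mice; their part in the level of Bnip3l was not tested. A pseudogene named Bnip3l-ps is annotated, and reads divided between copies leave the level uncertain, as they do for Atg4a with the annotated copy Atg4a-ps.

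The genes of both transcription factors had differences near 0. Tfeb stood at 8.49, 7.25, 11, 10.9 and 10.8 TPM in KPC mice 1 to 5, against 8.9, 9.48, 11.3, 8.76 and 10.6 TPM in sham mice 1 to 5. In TPM KPC mice 1 and 2 lay below every sham mouse and the other 3 among the upper sham mice. In normalized counts KPC mouse 2 (265) lay below every sham mouse (lowest 291). KPC mice 3 and 5 (403 and 372) lay above every sham mouse (highest 369) on that scale. The difference of Tfeb was 0.0035 ± 0.13 (SE; 95% interval -0.28 to 0.29), with a limma adjusted p of 0.994. Tfe3 averaged 19 ± 1.06 TPM in KPC and 18.8 ± 0.525 TPM in sham mice, with a difference of 0.05 ± 0.08 (SE).

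Genes with longer transcripts tended to have lower differences. Over the 39 genes the rank correlation between the longest annotated transcript and the difference was -0.505, and -0.336 without KPC mouse 1, as a description across genes, which share the same libraries and are not independent. Over all 14203 genes tested it was -0.142, and 0.00409 without KPC mouse 1. Of the 20 autophagy genes with transcripts up to 3338 bases, 12 were positive, and of the 19 longer ones 4 were. ATG8 transcripts reach 1112 to 2633 bases and those of Ulk1, Ulk2, Atg2a and Atg2b 5213 to 7546 bases. For single libraries against the mean of the sham mice, the rank correlation over the 39 genes was -0.492, -0.376, -0.212, 0.153 and -0.273 in KPC mice 1 to 5, and each sham mouse against the mean of the other 4 gave -0.242, 0.152, -0.301, 0.163 and 0.138 in sham mice 1 to 5. Over all 14203 genes the same correlations were -0.293, -0.215, -0.0101, 0.174 and 0.006 in KPC mice 1 to 5. In sham mice 1 to 5 they were -0.179, 0.00912, 0.0319, 0.0137 and 0.13. The part of length, or of what moves with it, in the differences was not tested.

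**Figure D5:**
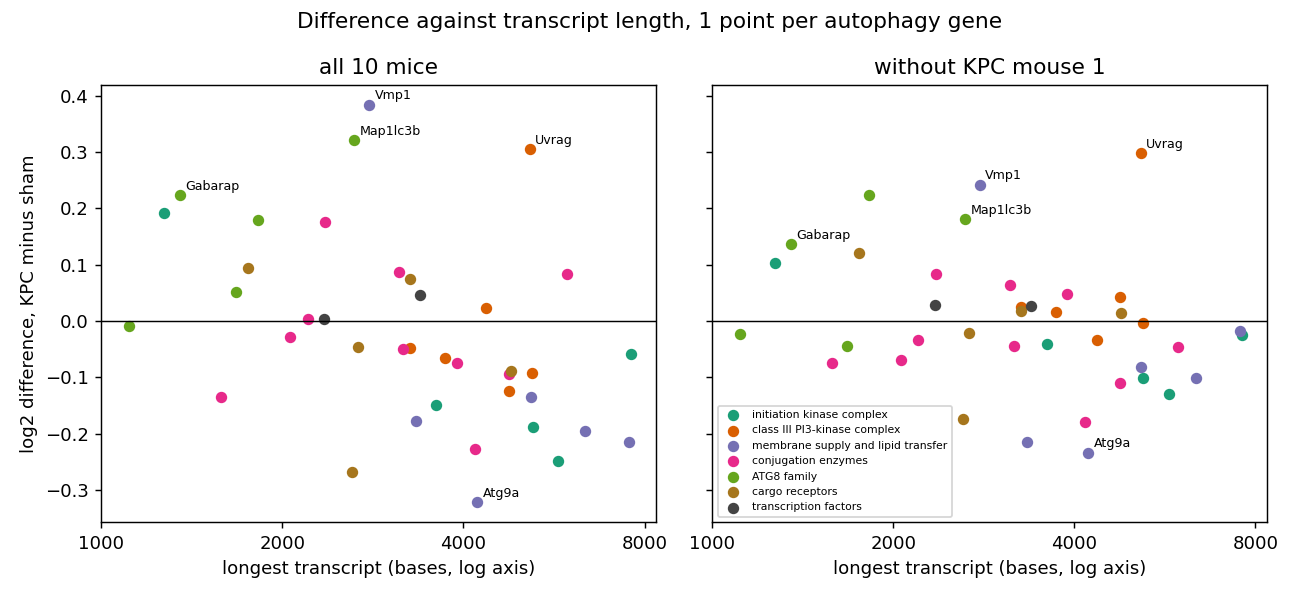
Log2 difference, KPC minus sham, of each autophagy gene against the length of its longest transcript in bases (log axis), with all 10 mice on the left and without KPC mouse 1 on the right, coloured by role. Long transcripts lie mostly below 0 with all mice (rank correlation -0.505), less so without KPC mouse 1 (-0.336), and Uvrag stands above 0 in both.

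The 7 lists of further genes of the pathway held 0 calls by limma. Of 15 further initiation, membrane and conjugation genes, 8 were positive, with a median difference of 0.01 (0.03 without KPC mouse 1). Tbk1, a kinase that phosphorylates optineurin and p62, stood at 13.1, 11.8, 12.3, 14.7 and 13.1 TPM in KPC mice 1 to 5, against 9.64, 10.7, 12.2, 11.5 and 10.7 TPM in sham mice 1 to 5, and its normalized counts did not overlap between groups. Its difference was 0.28 ± 0.08 (SE) with a limma adjusted p of 0.184. Trp53inp2, whose product binds ATG8 proteins, averaged 70.0 ± 19.4 TPM in KPC and 92.5 ± 18.5 TPM in sham mice, and Atg9b 1.64 ± 0.383 TPM in KPC and 0.985 ± 0.440 TPM in sham mice (SD, n = 5 each).

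Of 15 tested further cargo receptors 5 were positive, with a median of -0.04 (-0.02 without KPC mouse 1). Their smallest p-values belonged to Bcl2l13, a mitophagy receptor, at 17.9 ± 3.13 TPM in KPC and 20.5 ± 0.516 TPM in sham mice, Calcoco1, at 35.9 ± 7.56 TPM in KPC and 40.7 ± 4.4 TPM in sham mice, and Tax1bp1, at 71.4 ± 7.04 TPM in KPC and 78.95 ± 3.76 TPM in sham mice. Of 13 fusion genes, which tether and join autophagosome and lysosome, 4 were positive, with a median of -0.08. Vps33a, of the HOPS tether, averaged 14.4 ± 1.10 TPM in KPC and 16.6 ± 0.913 TPM in sham mice and the SNARE gene Stx17 17.9 ± 3.47 TPM in KPC and 22.3 ± 3.05 TPM in sham mice, with limma adjusted p of 0.342 and 0.438.

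Lysosomal genes activated by TFEB held 12 positive differences of 22, with a median of 0.05. Ctss, the gene of cathepsin S, which antigen-presenting cells express strongly, stood at 329, 72.6, 71.0, 95.9 and 68.7 TPM in KPC mice 1 to 5, against 36.5, 48.9, 45.8, 35.5 and 60.0 TPM in sham mice 1 to 5. The groups did not overlap, the difference was 1.24 ± 0.39 (SE) and the limma adjusted p was 0.252. With KPC mouse 1 left out the difference of Ctss was 0.80 ± 0.145 (SE) and its limma adjusted p 0.0489, the 1 gene of the 7 lists then called. Hexa, a subunit of the lysosomal hexosaminidase, averaged 128 ± 30.3 TPM in KPC and 96.0 ± 9.47 TPM in sham mice, and the sialidase gene Neu1 18.4 ± 3.65 TPM in KPC and 13.8 ± 0.772 TPM in sham mice. Of the macrophage markers 12 of 12 were positive with a median of 0.89, 0 passed with all mice, C1qa and C1qb were among those that passed without KPC mouse 1, and the 12 markers summed to 1574 to 6194 TPM in KPC mice and 926 to 1502 TPM in sham mice. Of these 12 markers 0 were listed at 0 in all mice. The part of macrophages in these levels was not tested.

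Upstream regulators gave no call either. Of 23 tested genes of mTORC1, the nutrient-sensing kinase complex that holds autophagy in check, and of its lysosomal control, 9 were positive, with a median of -0.07. Ddit4, an mTORC1 inhibitor induced by glucocorticoids and hypoxia, stood at 54.6, 43.1, 46.6, 122 and 119 TPM in KPC mice 1 to 5, against 31.5, 40.1, 44.3, 40.0 and 23.7 TPM in sham mice 1 to 5. KPC mice 4 and 5 were the highest of all, KPC mouse 2 lay below sham mouse 3 in TPM, and the difference was 1.01 ± 0.29 (SE) with a limma adjusted p of 0.205. Its normalized counts did not overlap between groups. Tbc1d7 averaged 8.80 ± 0.865 TPM in KPC and 11.3 ± 1.26 TPM in sham mice, and Fnip2 3.74 ± 0.930 TPM in KPC and 2.93 ± 0.313 TPM in sham mice.

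Of the 8 genes of AMP-activated kinase, the energy sensor that activates ULK1, and of its upstream kinase, 2 were positive, with a median of -0.04. At an unadjusted limma p under 0.05, 3 of the 8 were lower in KPC mice (Prkag3, Prkaa2 and Prkaa1) and 0 higher. Of all genes 5.91% were lower and 7.61% higher at that threshold. Prkaa2, a catalytic subunit, stood at 1.19, 2.04, 2.72, 2.34 and 2.35 TPM in KPC mice 1 to 5, against 3.35, 3.06, 3.09, 3.11 and 3.52 TPM in sham mice 1 to 5, without overlap, and its difference was -0.61 ± 0.19 (SE) with a limma adjusted p of 0.243. Prkag3, a regulatory subunit of skeletal muscle, averaged 0.706 ± 0.325 TPM in KPC and 1.49 ± 0.403 TPM in sham mice, with a difference of -1.10 ± 0.30 (SE). Skeletal muscle markers, all 10 of them negative, summed to 102.7 to 319.9 TPM in KPC mice and 117 to 4816 TPM in sham mice, and their part in these levels was not tested. Prkaa1, the other catalytic subunit, was listed at 0.548, 5.92, 0.975, 0 and 0 TPM in KPC mice 1 to 5, against 4.90, 8.31, 6.79, 7.20 and 5.81 TPM in sham mice 1 to 5. The exact zeros are listed values only. The difference of Prkaa1 was -4.89 ± 1.55 (SE), with a limma adjusted p of 0.252.

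The FoxO and MiT factors outside the 39 genes had 4 positive differences of 6. Foxo6 averaged 0.354 ± 0.141 TPM in KPC and 0.746 ± 0.284 TPM in sham mice, Tfec, a relative of TFEB found in macrophages, 1.90 ± 2.11 TPM in KPC and 0.536 ± 0.235 TPM in sham mice, and Mitf 5.08 ± 0.948 TPM in KPC and 4.66 ± 0.637 TPM in sham mice. The high mean of Tfec rests on KPC mouse 1, at 5.64 TPM, where the other KPC mice had 0.622 to 1.24 TPM. None passed, with a limma adjusted p of 0.291, 0.334 and 0.644.

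The tissue expressed fat cell genes in both groups. Adipocyte markers, all 8 measured, summed to 24810 to 30350 TPM in KPC mice and 25590 to 34310 TPM in sham mice, with a median difference of -0.14, or -0.03 without KPC mouse 1. T cell markers were positive for 7 of 7 tested and summed to 7.75 to 12.1 TPM in KPC mice and 5.89 to 7.97 TPM in sham mice. Neutrophil markers were positive for 6 of 6 tested and summed to 25.3 to 292 TPM in KPC mice and 15.2 to 62.1 TPM in sham mice. Endothelial, fibroblast and mesothelial markers had median differences of -0.05, -0.04 and 0.06 with all mice, and of 0.15, -0.13 and -0.12 without KPC mouse 1, so that the sign turned for endothelial and mesothelial markers. Pancreatic acinar genes had 1 tested member of 7, and epididymis and testis genes 0 of 6 (summed at 0 to 0.491 TPM in KPC and 0 to 0.0518 TPM in sham mice). With all 10 mice, 0 genes of the marker lists passed. The part of these cells in the levels above was not tested.

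On GRCm38 (mm10) with the GENCODE vM21 annotation, the genes with the smallest limma p-values are protein-coding. Uvrag (ENSMUSG00000035354, chromosome 7, 98885021 to 99141141) and Atg9a (ENSMUSG00000033124, chromosome 1, 75180860 to 75192196) lie on the minus strand, as do Wipi1 (ENSMUSG00000041895, chromosome 11, 109573331 to 109611967) and Vmp1 (ENSMUSG00000018171, chromosome 11, 86583865 to 86683836). Gabarap (ENSMUSG00000018567, chromosome 11, 69991143 to 69994951), Map1lc3b (ENSMUSG00000031812, chromosome 8, 121590361 to 121598760) and Gabarapl1 (ENSMUSG00000030161, chromosome 6, 129533160 to 129542346) lie on the plus strand. Exons of Uvrag overlap Gm45187, those of Map1lc3b Zcchc14, those of Gabarapl1 1700101I11Rik, those of Becn1 Cntd1, those of Sqstm1 Mrnip and those of Bnip3 Gm45507, each on the other strand.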

How the data were processed

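Gene expression was measured by RNA sequencing of visceral fat from 5 KPC and 5 sham mice, grouped and numbered by the sample descriptions. Per the labels' protocols, the fat was snap frozen, RNA came from a Qiagen column kit and Genewiz prepared the libraries. Per the submitters' processing notes, the authors used Salmon, DESeq, DESeq2 and build mm10; the sources used here do not give versions, annotation or strand setting. The authors deposited a table of normalized gene counts, treated here as a signal because its values are not whole, and a table of TPM. Every column matched 1 sample by its title.

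Values of log2(normalized count + 1) were tested, KPC minus sham and two-sided, for the 14203 genes averaging 10 or more, using limma 3.58.1 (R 4.3.3) and its variance trend. Benjamini-Hochberg adjustment ran over all of these genes, at a threshold of 0.05. Single genes also had an exact permutation test over all 252 assignments of 5 of 10 mice. The fit was tested on simulated data. Read depth is unknown, since normalized totals (20941200 to 24449900 per library) do not keep it. The labels give only separate samples, so p-values measure the spread between these. Alternatives were the TPM table, quantile normalization, other pseudocounts and filters, no variance trend, each mouse left out, and blocks by description or title number.

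Values in every mouse are given for genes past the threshold, the 8 with the smallest p-value, those without overlap and a chosen set of 14. Up to 3 genes with the smallest p-value are named from each further list. The 39 genes and all lists were chosen with earlier results of these data known. Of the further lists, Calcoco2, Sesn3 and Lamtor5 did not pass the filter. Transcript lengths and coordinates came from GENCODE vM21, and promoters from RefSeq on GRCm38.p6. The result of 1 marker gene is not reported here.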

Additional observations from a re-analysis of the deposited data

Results flagged for a closer look

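Among the 78 groups of 5 mice formed by 39 genes and both conditions, 8 held a library far from the other 4, with a gap to its nearest neighbour of more than 0.71 of the group's range in log2 normalized counts. Chance marks about 1 in 20 groups in this way if values are normal and groups independent. The 78 groups share the same 10 libraries, so the count of 8 cannot be judged against that rate. Among KPC mice these were mouse 1 for Atg13 (12.1 TPM, others 16.7 to 19.9 TPM), Pik3r4 (4.26 TPM, others 7.32 to 9.35 TPM) and Gabarap (408 TPM, others 299.7 to 337 TPM), and mouse 2 for Uvrag (7.03 TPM, others 8.42 to 10.2 TPM). Among sham mice all 4 were mouse 1, for Atg101 (21.6 TPM, others 17.1 to 19.1 TPM), Vmp1 (86.2 TPM, others 51.7 to 65 TPM), Atg12 (20 TPM, others 15.2 to 16.1 TPM) and Map1lc3a (156 TPM, others 214 to 242 TPM).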

How the results depend on the processing

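None of the 39 genes was called by limma in any of the 19 alternatives, and the lowest adjusted p of any of them was 0.16, for Vmp1 with the replicate block; 24 of the 39 kept their sign throughout. The count of all genes called, 8, was 2 on TPM, 3 without the variance trend, 4 with the replicate block, 4 with the title number block and 2 to 70 with 1 mouse left out. It was 70, 14, 8, 2 and 5 without KPC mice 1 to 5 in turn and 3, 3, 3, 2 and 4 without sham mice 1 to 5 in turn. The count of autophagy genes at an unadjusted p under 0.05, 2, was 5 after quantile normalization (Uvrag, Gabarap, Gabarapl1 and Map1lc3b higher, Atg9a lower), 3 with the replicate block (Uvrag, Vmp1 and Atg9a) and 2 to 5 with 1 mouse left out (4 without KPC mouse 1, 5 without KPC mouse 4). On TPM it was again 2, there Atg9a and Wipi1, both lower. The count without overlap was 1 to 2 with 1 mouse left out, since Uvrag joined Gabarap without KPC mouse 2, Atg9a without KPC mouse 3 and Vmp1 without sham mouse 1. Of all genes, 12.4% had an unadjusted limma p under 0.05 without KPC mouse 1 (13.5% with all mice). The groups did not overlap for 4.8% (4.03% with all mice). Such shares are not given here for the other alternatives, so a higher count there cannot be read as particular to the autophagy genes.

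Of 342 single-gene values, 20 changed sign and the rest stayed on their side. Becn1 was -0.0111 on TPM and -0.0566 to 0.0743 with 1 mouse left out. Tfeb was -0.026 on TPM, -0.0104 after quantile normalization, -0.00321 with the title number block and -0.0596 to 0.0917 with 1 mouse left out. After quantile normalization Map1lc3a was 0.0123 and Sqstm1 0.0119. With 1 mouse left out, Map1lc3a ran from -0.0766 to 0.0536, Atg7 from -0.136 to 0.0481 and Gabarapl2 from -0.044 to 0.11. The causes were not tested. The labels do not say that the description numbers pair mice. In deviations of log2 values from the group means, 2 of 5 same-numbered KPC and sham pairs correlated over 0.1 (0.00505 to 0.191). Pairs with different numbers ran from -0.239 to 0.159.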
